A study of Mus musculus with 29 samples.

Results

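Liver adenomas, benign tumours of hepatocytes, were compared with vehicle-control liver of the same age in male mice. The members were chosen by their labels alone: 7 libraries of adenoma and 6 libraries of liver carrying the label VEH, all from 10 months of age, which makes 13 of the 29 libraries of the study. The adenomas carry the label TBT. Their dams drank tributyltin, an organotin that binds and activates RXR and PPARG, nuclear receptors of lipid metabolism, while pregnant and nursing, and VEH was read as the unexposed arm. No adenoma carries the VEH label, so tumour and exposure cannot be told apart in this comparison. The 5 libraries of TBT liver of 10 months entered the same fit and are given beside the results as a range. The labels give no strain and do not say whether the libraries came from separate animals, so the p-values describe only how these samples spread, which may be technical. Total RNA was sequenced with stranded libraries, and the libraries hold 21920649 to 27563960 counts in adenoma and 25714194 to 30362835 in VEH liver.

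Adult hepatocytes make most plasma proteins, clear drugs and ammonia, build cholesterol and bile acids, and divide this work along the path of the blood: periportal cells receive blood from the portal vein and the gut, and pericentral cells lie around the central vein, where Wnt signals from endothelial cells set their programme. In male mice the pulsed release of growth hormone, acting through its receptor and STAT5B, keeps a set of male-biased genes high. The adenoma label was set against markers of the liver's cell types. The 12 hepatocyte markers summed to 84589, 113492 and 158091 CPM in the lowest, the median and the highest adenoma and to 150048, 152702 and 187253 CPM in VEH liver, so hepatocyte RNA was abundant in every adenoma. CPM are counts per 1000000 counts of the effective library size. Of the 12, 7 were lower in adenoma at an adjusted p of at most 0.05, and Hnf4a and Ahsg were not called. In bulk tissue, fewer cells of a type and less RNA per cell cannot be told apart. Other cell types moved with the tissue: 10 of 11 cholangiocyte markers, 9 of 12 stellate and fibroblast markers, 11 of 12 markers of monocyte-derived macrophages, 9 of 10 T and NK cell markers and 7 of 9 adipocyte markers were higher, and 5 of 12 Kupffer cell markers were lower. Their summed levels were 228 to 944 against 96.5 to 121 CPM for cholangiocytes, 440.0 to 801 against 267 to 444 CPM for stellate cells, 1502 to 2311 against 1732 to 2420 CPM for monocyte-derived macrophages, 7.01 to 18.9 against 3.35 to 4.87 CPM for T and NK cells, 894 to 3477 against 3259 to 5180 CPM for adipocytes and 775 to 1156 against 897 to 1226 CPM for Kupffer cells. For monocyte-derived macrophages the sums overlapped, and for adipocytes they were mostly lower, although most markers of both were called higher. A sum follows its most abundant members. Over the tested markers, the median log2 difference from the VEH mean did not overlap. It was 0.75 to 1.89 against -0.25 to 0.16 for monocyte-derived macrophages and 0.40 to 2.84 against -0.23 to 0.37 for adipocytes. The part of these cells in the results was not tested.

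Of 13474 genes tested with edgeR's quasi-likelihood test, 7090 differed between adenoma and VEH liver (52.6%). Adenoma was higher for 3755 genes (27.9%) and lower for 3335 (24.8%). At a fold change of at least 2 the comparison was unequal, with 1956 genes higher (14.5%) and 363 lower (2.69%). The count of each gene list is therefore read against this large background, and a list with shares near these values is not set apart from the other genes. The split rests on the scaling. With libraries scaled to their total counts in place of TMM, a choice added after the data were seen, 7523 genes were higher and 802 lower, and the median log2 fold change of all genes tested went from 0.01 to 0.36. Falls smaller than that shift are therefore relative to the median gene. Some larger falls of the genes named also lost their call with that scaling. In the same edgeR fit, 0 genes differed between TBT and VEH liver of 10 months, and 595 of the 13474 tested had an unadjusted p under 0.05.

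**Figure D1:**
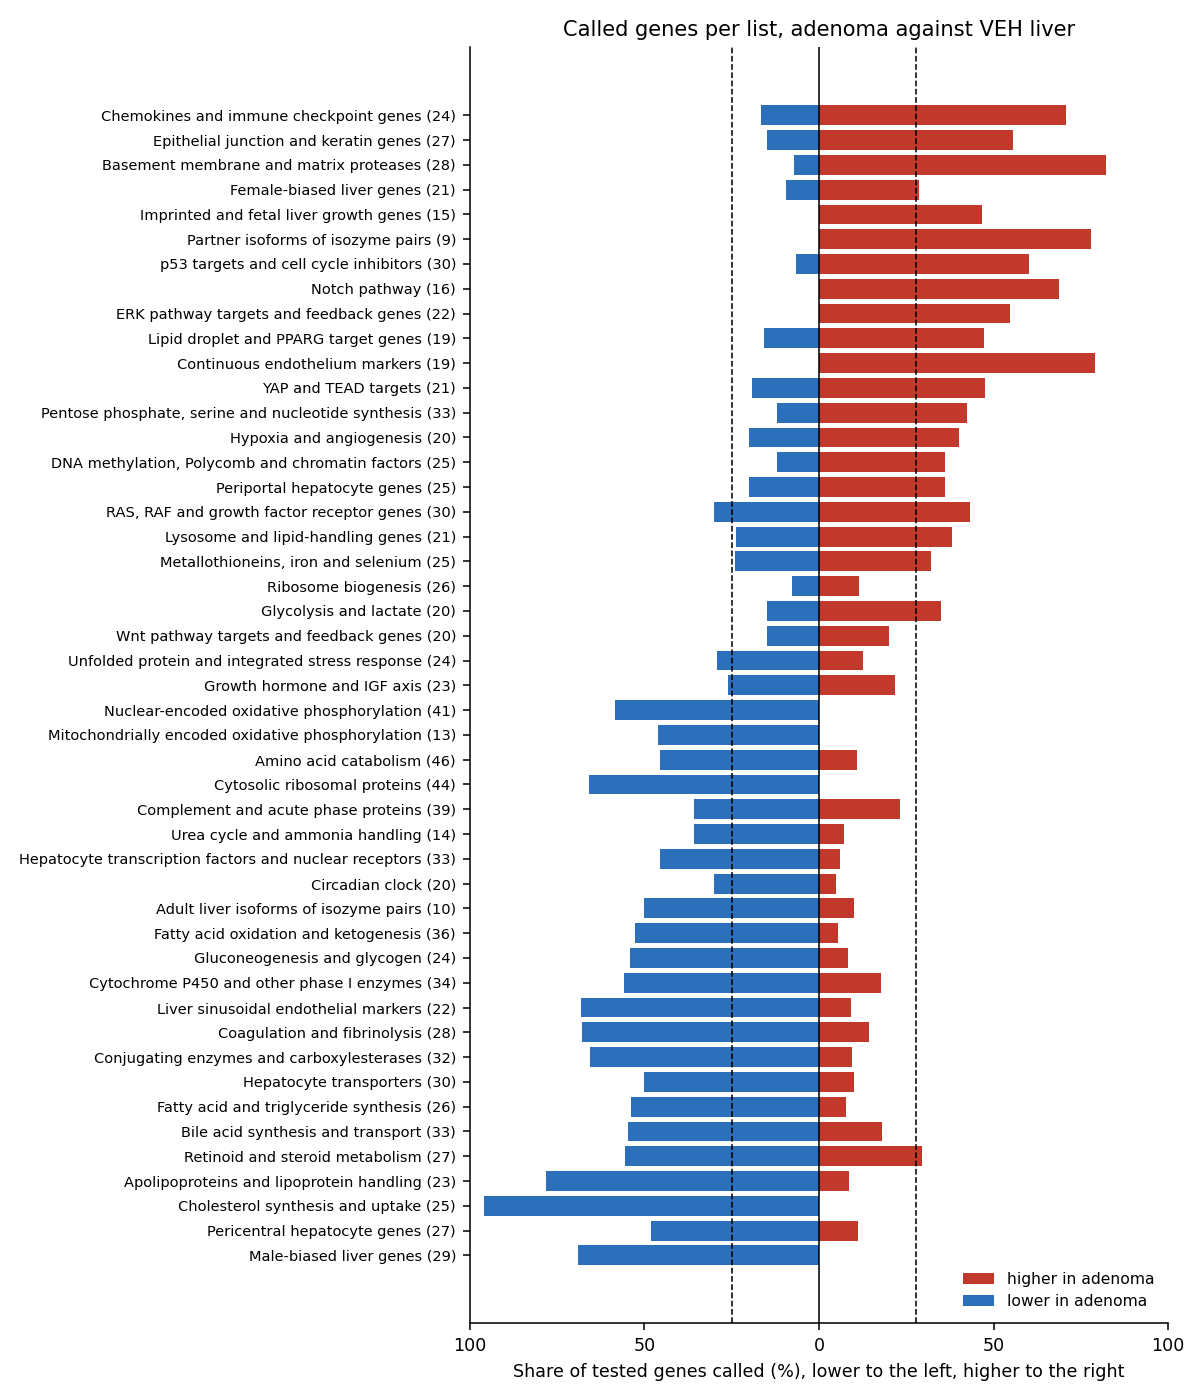
Share of the tested genes of each list that was called higher (right) or lower (left) in adenoma than in VEH liver, in percent; the number of tested genes is in brackets. Dashed lines mark the background over all genes, 27.9% higher and 24.8% lower. Cholesterol synthesis (24 of 25 lower) and the male-biased genes (20 of 29 lower) lie far left, and matrix genes (23 of 28 higher) and continuous endothelium (15 of 19 higher) far right.

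The largest falls were in the male-biased programme. Of 29 such genes, 20 were lower and 0 higher, with a median log2 fold change of -1.15, and 12 lay below every VEH library in all 7 adenomas. Hsd3b5, an enzyme of steroid metabolism (ENSMUSG00000038092, chromosome 3, 98618634 to 98630252, minus strand), was at 0.398, 3.08 and 14.9 CPM in adenoma and 182, 230.1 and 318 CPM in VEH liver, the values being the lowest, the median and the highest library of each group. The groups did not overlap (log2 fold change -5.49 with SE 0.66, adjusted p = 5.54e-06). Slco1a1, a transporter of organic anions and bile acids, was at 5.63, 31.9 and 109 CPM against 825, 888 and 1077 CPM (log2 fold change -4.24 with SE 0.49, adjusted p = 3.46e-06). The TBT livers ranged over 515 to 838 CPM, far above every adenoma. Susd4, which encodes a complement regulator, had a log2 fold change of -4.70, and Elovl3, a fatty acid elongase, one of -2.70. Moxd1 was called too (log2 fold change -4.49 with SE 1.29, adjusted p = 0.00779) although only 4 of 7 adenomas lay below all VEH livers, because VEH replicate 6 was itself at 3.38 CPM, and the TBT livers spanned 0.356 to 292 CPM.

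The major urinary proteins are pheromone carriers that male mouse liver secretes in large amounts. Mup3 was at 98.2, 656 and 1904 CPM in adenoma and 8199, 9018 and 10488 CPM in VEH liver (log2 fold change -3.69 with SE 0.46, adjusted p = 6.47e-06), the largest loss in mean CPM among called genes after Alb, Scd1 and Serpina3k. Mup7 was at 4.24, 23.4 and 565 CPM against 3305, 5053 and 6347 CPM (log2 fold change -5.47 with SE 0.93, adjusted p = 0.000131). The spread among adenomas was wide: replicate 7 held 565 CPM and replicate 11 4.24 CPM. Mup1, Mup11, Mup12, Mup16 and Mup21 were also below every VEH library in all 7 adenomas. Several of these genes are near-identical copies on chromosome 4, and the counting may have split or shared their reads, so the value of any single copy is uncertain. Mup20, a more divergent member, was not called (log2 fold change -0.26, adjusted p = 0.356).

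The growth hormone receptor gene Ghr fell, at 393, 473 and 505 CPM against 782, 869.9 and 1014 CPM (log2 fold change -0.97 with SE 0.09, adjusted p = 2.86e-07). Stat5b, its transcription factor, fell less (log2 fold change -0.34 with SE 0.09, adjusted p = 0.0029; 0.02 with total-count scaling), and Stat5a, Jak2, Cish and Socs2 were not called. Cish, which STAT5 is known to induce, was lower without VEH replicate 1 or 6 (-1.46 and -1.44, adjusted p = 0.0208 and 0.0328), and Socs2 without VEH replicate 1 (-0.88, adjusted p = 0.0343). Products of growth hormone action on liver were lower: Igf1 (log2 fold change -0.59) and Igfals (-1.11), which holds IGF1 in the blood. Igf1 was not called with total-count scaling (-0.26, adjusted p = 0.177). Igf1r, the IGF1 receptor gene, was higher (1.09). Of the 21 female-biased genes tested, 6 were higher and 2 lower, a share of rises near the background of 27.9%. The median difference of the list from the VEH mean was 2.43 in adenoma replicate 6 and 1.73 in replicate 7. It ran from -0.15 to 0.37 in the other adenomas and from -0.48 to 0.45 in VEH livers. Cyp2a4, a testosterone hydroxylase, was at 33.3, 133 and 666 CPM against 1.85, 3.02 and 4.61 CPM (log2 fold change 6.16 with SE 0.78, adjusted p = 9.04e-06), with adenoma replicate 1 highest. It is a near-copy of Cyp2a5, so the reads of the pair are uncertain. Prlr, the prolactin receptor, was lower (log2 fold change -1.43). Cyp2b9, Hao2 and A1bg had positive fold changes that did not pass the test, except Hao2 without adenoma replicate 11 (1.97, adjusted p = 0.0489).

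Enzymes of drug metabolism split into members that fell and a smaller number that rose. Of 34 phase I genes 19 were lower and 6 higher, with a median log2 fold change of -0.41. Cyp2c29, a pericentral P450, was at 35.3, 182 and 275 CPM in adenoma and 865, 1099 and 1451 CPM in VEH liver (log2 fold change -2.82 with SE 0.31, adjusted p = 1.94e-06). Cyp2c50, Cyp2c54 and Cyp2c37, of the same chromosome 19 cluster, fell by similar amounts (-3.33, -3.35 and -3.35). Reads shared within this family make the single values uncertain. Cyp2e1, which oxidises ethanol and acetaminophen, was at 603, 1629 and 5653 CPM against 5513, 6865 and 10389.5 CPM (log2 fold change -1.74 with SE 0.39, adjusted p = 0.00128). Here replicate 7, at 5653 CPM, overlapped the controls.

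Cyp2b10, Cyp2a5 and Cyp3a11 moved the other way. Cyp3a11, the main drug-inducible P450 of the mouse 3A family, was at 1760.0, 4344 and 7415 CPM against 564, 696 and 1052 CPM (log2 fold change 2.61 with SE 0.44, adjusted p = 0.000111), the largest gain in mean CPM of any called gene. Cyp2a5, which hydroxylates coumarin, was at 443, 1079.9 and 1597 CPM against 93.1, 128 and 293 CPM (log2 fold change 2.69 with SE 0.37, adjusted p = 1.74e-05). Cyp2b10 was low in VEH liver (0, 0.0799 and 0.175 CPM) and higher but uneven in adenoma (0.665, 2.38 and 26.8 CPM, log2 fold change 6.19 with SE 1.0, adjusted p = 7.38e-05), and replicate 1 held the highest value. In all 3 genes every adenoma lay above every VEH liver. The xenobiotic receptors known to drive these genes in mouse liver did not move together. Nr1i3, which encodes CAR, was lower (log2 fold change -2.18 with SE 0.40, adjusted p = 0.000273), and Nr1i2, which encodes PXR, was higher (log2 fold change 0.53 with SE 0.16, adjusted p = 0.00859). Por, the electron donor of the P450s, was higher as well (log2 fold change 0.64), a call lost without VEH replicate 1, 5 or 6 or adenoma replicate 7 or 12 (adjusted p of 0.0539 to 0.0640).

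**Figure D2:**
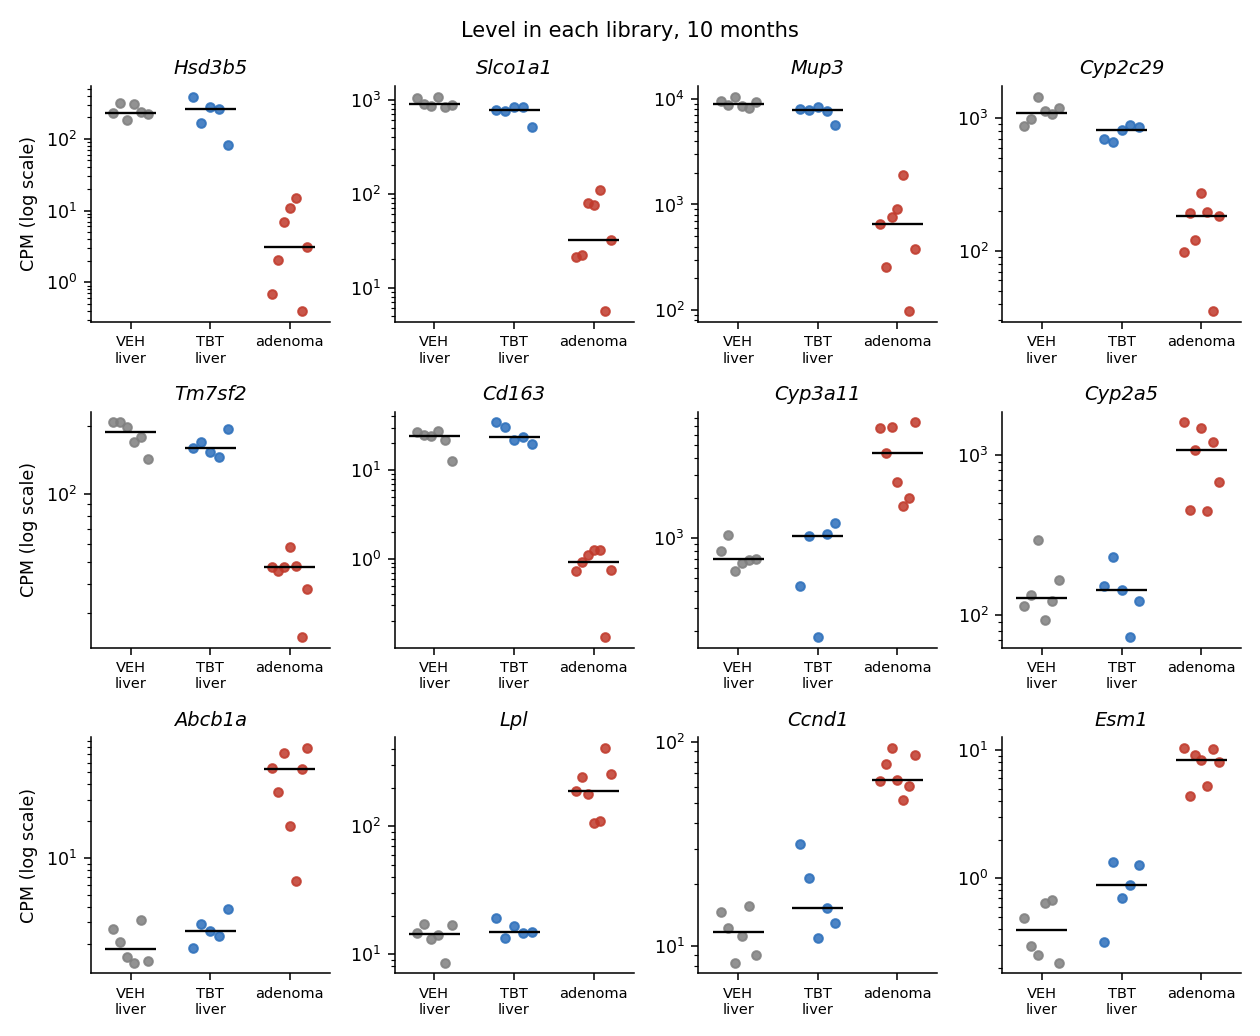
Level in CPM (log axis) of 12 genes in each library of VEH liver (6), TBT liver (5) and adenoma (7); bars mark the group medians. Hsd3b5, Slco1a1, Mup3, Cyp2c29, Tm7sf2 and Cd163 are lower in each of the 7 adenomas than in any VEH liver, and Cyp3a11, Cyp2a5, Abcb1a, Lpl, Ccnd1 and Esm1 are higher.

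Conjugating enzymes followed the same pattern, with 21 of 32 lower and 3 higher (median -0.54). The carboxylesterases Ces1f (log2 fold change -1.32 with SE 0.15, adjusted p = 2.57e-06) and Ces3a (log2 fold change -1.14 with SE 0.15, adjusted p = 9.90e-06) were below all VEH livers in 7 of 7 adenomas. Ces1d, Ces1e and Ces3b were lower too, by log2 fold changes of -1.61, -1.36 and -1.27. Ugt1a9, a glucuronosyltransferase, was at 62.8, 129 and 246 CPM against 11.5, 17.9 and 30.9 CPM and rose (log2 fold change 2.88 with SE 0.33, adjusted p = 3.13e-06). The Ugt1a genes share their 3′ exons, so the reads of Ugt1a9, of Ugt1a5 (-1.94) and of Ugt1a1 (-0.59) may have been split between them.

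Of 33 genes of bile acid synthesis and transport, 18 were lower and 6 higher (median -0.64). Cyp8b1, the sterol 12-alpha-hydroxylase that sets the share of cholic acid (chromosome 9, 121914356 to 121916305, minus strand), had a log2 fold change of -2.41. Cyp27a1, which starts the alternative pathway, was at 247, 289 and 454 CPM against 599, 719 and 901 CPM (log2 fold change -1.17 with SE 0.14, adjusted p = 3.10e-06). Cyp7a1, the rate-limiting enzyme of the classical pathway, was at 17.8, 85.1 and 192 CPM against 64, 159 and 328 CPM and did not pass the test (log2 fold change -1.24 with SE 0.54, adjusted p = 0.0611). It was called without adenoma replicate 7, whose value was the highest of the adenomas (-1.67, adjusted p = 0.0133), without VEH replicate 5 or 6 (adjusted p = 0.0413 and 0.0388), and by DESeq2 and limma-voom (0.0472 and 0.0437). The uptake carriers Slc10a1, which takes up conjugated bile acids with sodium, and Slco1b2 were lower (-1.98 and -1.52). The bile acid receptor gene Nr1h4, encoding FXR, was at 60.8, 70 and 89.8 CPM against 133, 155 and 191 CPM (log2 fold change -1.10 with SE 0.11, adjusted p = 5.19e-07), with no overlap between the groups. Its target Nr0b2 was not called (0.04).

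Abcc4, an exporter of the basolateral membrane that returns bile acids to the blood, was at 9.72, 36.2 and 64.2 CPM against 2.51, 3.07 and 3.38 CPM (log2 fold change 3.58 with SE 0.39, adjusted p = 2.26e-06). Slc51b, one subunit of the OST exporter, was higher (log2 fold change 4.29), while its partner Slc51a was not called (-0.29). Abcg5 and Abcg8, which together pump sterols into bile, were both higher (1.15 and 0.70). The canalicular bile salt pump Abcb11 was lower (-0.47). The multidrug transporter Abcb1a was at 6.47, 52.9 and 78.8 CPM against 1.41, 1.81 and 3.11 CPM (log2 fold change 4.47 with SE 0.49, adjusted p = 2.42e-06), and its homologue Abcb1b was also higher (2.13). Among 30 hepatocyte transporters as a whole, 15 were lower and 3 higher (median -0.56).

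Cholesterol synthesis was the most one-sided of the metabolic lists. Of 25 genes tested, 24 were lower and 0 higher (median log2 fold change -1.0), and 12 of them fell by at least 2-fold. The exception was Srebf2, the transcription factor gene that drives the pathway, which was not called (log2 fold change -0.03 with SE 0.11, adjusted p = 0.864). Hmgcs1, at the start of the pathway (-0.74), fell less than several later enzymes. Mevalonate pathway enzymes followed with Mvk at -0.98, Pmvk at -1.41, Mvd at -1.92, Idi1 at -1.44 and Fdps at -1.52. Among the enzymes that turn lanosterol into cholesterol, Tm7sf2, a sterol reductase, was at 23.5, 47.5 and 58.5 CPM against 143, 189 and 207 CPM (log2 fold change -2.06 with SE 0.15, adjusted p = 2.15e-08). Hsd17b7, which reduces a sterol ketone, was at 32.9, 38.4 and 48.1 CPM against 90.1, 107 and 130.0 CPM (log2 fold change -1.43 with SE 0.10, adjusted p = 1.56e-08). Both were below all VEH livers in 7 of 7 adenomas, as were 10 of the 25 genes. With total-count scaling 16 of the 25 remained lower and 1 was higher, with a median of -0.64.

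VEH livers themselves varied in this pathway. The median difference of the 25 genes from the VEH mean ran from -0.78 in VEH replicate 7 to 0.44 in replicate 4. In the adenomas it ran from -0.68 in replicate 6 to -1.39 in replicate 7, so the highest adenoma overlapped the lowest control, and in the TBT livers from -0.60 to 0.20. Idi1 shows the spread in single values, at 12.2, 19.4 and 28.3 CPM in adenoma against 34.4, 52.8 and 88.2 CPM in VEH liver (log2 fold change -1.44 with SE 0.21, adjusted p = 2.68e-05).

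**Figure D3:**
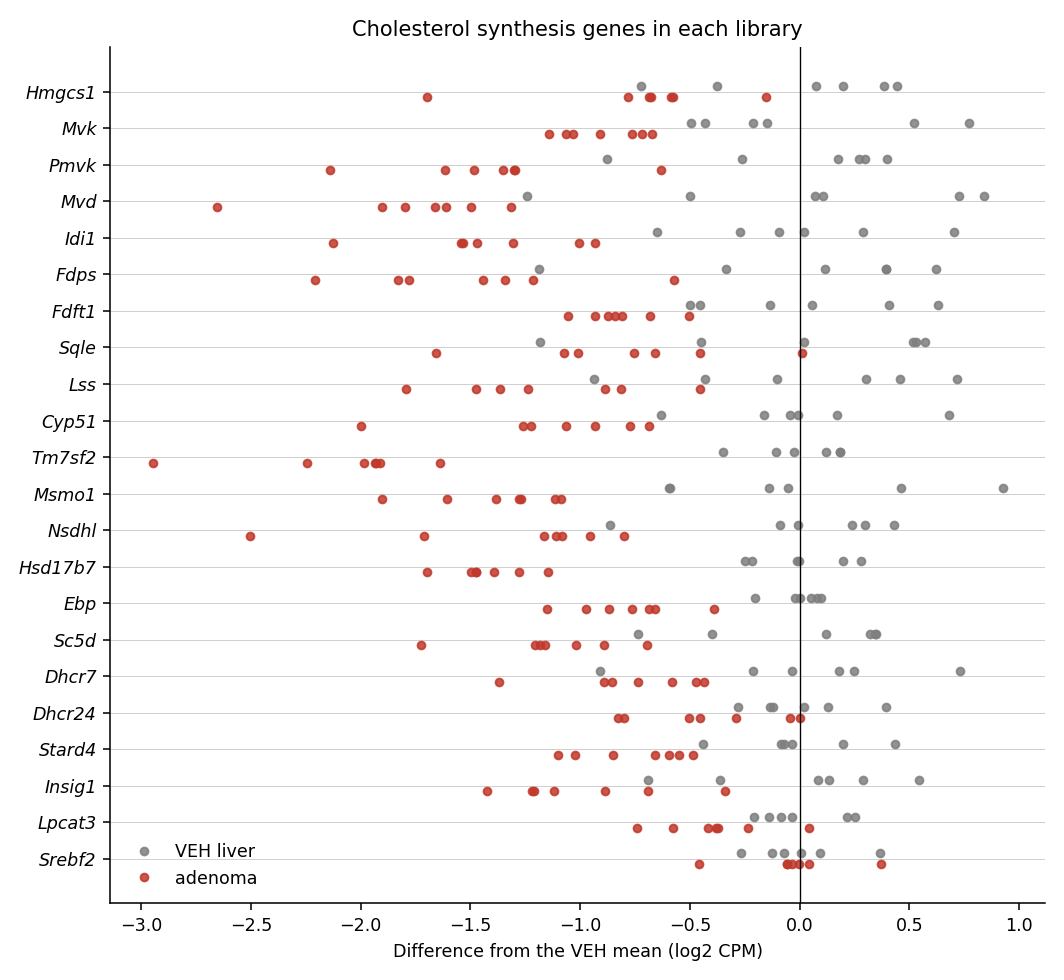
Difference in log2 CPM (pseudocount 0.25) from the VEH mean for genes of cholesterol synthesis, ordered by step from Hmgcs1 at the top, in each VEH liver (grey) and adenoma (red). Tm7sf2, Hsd17b7 and Mvd lie clear of the controls in every adenoma, whereas Srebf2 at the foot is mixed with them.

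The promoters of 3 of these genes are printed because the list moved together and because 2 motifs known from sterol-regulated promoters were searched in them. They cover 250 bases before to 50 after the start site, come from RefSeq on GRCm38.p6, and are written in the direction of the gene. Capitals mark the CCAAT box (CCAAT or, on the other strand, ATTGG) and a sterol element core (TCACNCCAC, on either strand; its match in Hmgcs1 overlaps no CCAAT box). Hmgcs1, the HMG-CoA synthase of the first committed steps, lies at chr13:119690101-119690400 on the plus strand. Idi1, the isomerase of the isoprene units, lies at chr13:8885356-8885655 on the plus strand. Cyp51, the lanosterol demethylase, lies at chr5:4104648-4104947 on the minus strand.
Hmgcs1: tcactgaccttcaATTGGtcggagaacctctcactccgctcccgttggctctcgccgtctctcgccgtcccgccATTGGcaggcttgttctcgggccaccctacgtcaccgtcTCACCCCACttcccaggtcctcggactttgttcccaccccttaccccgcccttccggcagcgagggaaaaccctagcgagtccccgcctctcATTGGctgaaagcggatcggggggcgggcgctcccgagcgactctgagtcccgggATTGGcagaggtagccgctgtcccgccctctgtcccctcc
Idi1: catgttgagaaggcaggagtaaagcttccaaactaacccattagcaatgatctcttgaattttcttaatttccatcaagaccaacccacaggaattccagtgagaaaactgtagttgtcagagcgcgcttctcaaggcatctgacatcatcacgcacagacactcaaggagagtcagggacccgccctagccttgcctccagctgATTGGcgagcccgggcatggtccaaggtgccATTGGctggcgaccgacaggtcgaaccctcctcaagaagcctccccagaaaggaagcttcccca
Cyp51: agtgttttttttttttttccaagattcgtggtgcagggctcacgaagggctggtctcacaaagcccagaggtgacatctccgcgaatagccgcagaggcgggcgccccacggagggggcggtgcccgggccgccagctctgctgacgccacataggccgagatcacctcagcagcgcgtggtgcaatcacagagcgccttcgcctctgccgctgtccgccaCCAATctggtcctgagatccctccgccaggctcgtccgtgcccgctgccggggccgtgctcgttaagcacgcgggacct
Of the 25 genes, 17 had a promoter in the RefSeq table. All 17 hold a CCAAT box, against 37.4% of all 32851 promoters, or 41.1% of the 27025 genes with at least 1 promoter that holds it. The sterol element core was found in Hmgcs1 alone of the 17, against 1.24% of all promoters. Srebf2, which was not called, holds a CCAAT box as well. A match describes letters in this window and is no measured site.

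Genes of fatty acid synthesis were lower in part, while a few lipid-storage genes rose. Of 26 genes of fatty acid and triglyceride synthesis, 14 were lower and 2 higher (median -0.61), or 6 and 5 with total-count scaling. The median difference of the list from the VEH mean overlapped, at -0.84 to -0.10 in adenoma and -0.78 to 0.64 in VEH liver. Scd1, the main desaturase of mouse liver, was at 5734, 8314 and 17258 CPM against 8720.1, 24433 and 36386 CPM (log2 fold change -1.25 with SE 0.37, adjusted p = 0.00814). It was not called with total-count scaling (-0.90, adjusted p = 0.0535). Dgat2, which makes triglyceride, was lower with no overlap (log2 fold change -1.14 with SE 0.11, adjusted p = 4.42e-07). Fasn spread so widely among the VEH livers (179.5, 1027 and 2960.4 CPM) that its fold change of -0.35 did not pass the test. The 2 that rose were Scd2, the desaturase isoform of brain and fetal tissue, at 14.7, 128 and 312 CPM against 5.44, 6.76 and 10.2 CPM (log2 fold change 4.23 with SE 0.50, adjusted p = 5.01e-06), and Elovl7, a fatty acid elongase (log2 fold change 5.90 with SE 0.76, adjusted p = 1.00e-05).

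Of 19 genes of lipid droplets and PPARG targets, 9 were higher and 3 lower (median 0.68). Cidec, which enlarges lipid droplets, was at 22, 51.5 and 170.4 CPM against 1.30, 4.20 and 4.78 CPM (log2 fold change 4.31 with SE 0.52, adjusted p = 5.93e-06). Lpl, the lipoprotein lipase that adult hepatocytes silence, was at 106, 189 and 409 CPM against 8.58, 14.2 and 17.1 CPM (log2 fold change 3.92 with SE 0.29, adjusted p = 4.78e-08). Both lay above every control and every TBT liver in 7 of 7 adenomas. Fabp4, a fatty acid carrier of adipocytes and endothelium, and Cd36, a fatty acid importer, were also higher (3.49 and 1.96). Pparg itself was at 9.93, 19.9 and 30.7 CPM against 6.87, 13 and 22.7 CPM and was not called (log2 fold change 0.61 with SE 0.28, adjusted p = 0.0762), except without adenoma replicate 7 or VEH replicate 2 (adjusted p = 0.0282 and 0.0173) and by DESeq2 (0.0456). G0s2, which inhibits the lipase ATGL, was lower (log2 fold change -1.94 with SE 0.43, adjusted p = 0.00121). Of 9 adipocyte markers tested 7 were higher and 1 lower. The summed level of all 12 was mostly lower, at 894 to 3477 against 3259 to 5180 CPM. The median difference of the tested markers from the VEH mean was higher, at 0.40 to 2.84 against -0.23 to 0.37. Adipoq was higher (log2 fold change 3.22) at 0, 0.594 and 5.53 CPM against 0, 0.0801 and 0.405 CPM. Its call was lost without adenoma replicate 5 (adjusted p = 0.0694). Car3 was lower (-1.59), and whether fat cells contributed was not tested.

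Lipoprotein genes and fatty acid oxidation were mostly lower. Of 23 apolipoprotein and lipoprotein genes, 18 were lower and 2 higher (median -0.75). Apoa2, a protein of HDL, was at 3124, 3633 and 4706 CPM against 6959, 7154 and 7924 CPM (log2 fold change -0.98 with SE 0.11, adjusted p = 1.53e-06). Mttp, which loads lipid onto apolipoprotein B, was also lower with no overlap (log2 fold change -0.76 with SE 0.10, adjusted p = 9.02e-06), while Apob itself was not called (-0.22). Apoa4 was higher (log2 fold change 1.08 with SE 0.32, adjusted p = 0.00862), as was the HDL receptor gene Scarb1 (0.67). Of 36 genes of oxidation and ketogenesis 19 were lower and 2 higher (median -0.41), or 3 lower and 7 higher with total-count scaling. Ppara, the receptor that drives them, was among the lower (log2 fold change -0.77 with SE 0.14, adjusted p = 0.000187). Ehhadh, a peroxisomal enzyme, was higher (log2 fold change 0.92 with SE 0.28, adjusted p = 0.0113), a call lost with all 5 groups in the fit (adjusted p = 0.0515).

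Sugar metabolism showed a shift between isozymes that was partial. Adult liver uses one isozyme at several steps for which other tissues use a partner. Of 9 partner isoforms tested 7 were higher and 0 lower, and of 10 adult liver isoforms 5 were lower and 1 higher. The 5 became 3 with all 5 groups in the fit and 2 with total-count scaling. Hexokinase 2, encoded by Hk2, rose (log2 fold change 2.08 with SE 0.29, adjusted p = 1.27e-05), and so did Pygb, the brain glycogen phosphorylase (log2 fold change 2.49 with SE 0.34, adjusted p = 1.73e-05), Pfkp, a phosphofructokinase (log2 fold change 2.06 with SE 0.30, adjusted p = 2.31e-05), and Pkm, the pyruvate kinase of most tissues (log2 fold change 1.07 with SE 0.13, adjusted p = 2.83e-06). Pklr and Pygl, the adult partners of Pkm and Pygb, were lower (-1.31 and -0.88). Mat1a and Pfkl were not called, and Slc2a1 and Gys1 were not called on the partner side. Gls2, the liver glutaminase, was higher (0.42). The call of Gls2 was lost in 7 of the 13 fits that left out 1 library (VEH replicates 1, 5, 6 and 7 and adenoma replicates 3, 5 and 7), and Mat1a was called lower without adenoma replicate 7 (-0.65, adjusted p = 0.00638).

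The level per exon length, in CPM per kilobase, shows how far the balance moved. Pkm was at 6.54, 8.35 and 11.7 CPM per kilobase in adenoma and 3.38, 3.99 and 4.89 in VEH liver, while Pklr was at 16.1, 40.2 and 53.7 against 48.7, 87.5 and 183. Pygb rose to 2.57, 10.5 and 16.2 from 1.48, 1.72 and 1.99, but Pygl remained at 43.3, 58.5 and 75 against 73.5, 111 and 146. The adult isoform thus kept the higher median level in each of these pairs. Exon length was the union of the exons of all annotated transcripts, so a comparison of level between genes rests on that choice. Pdk1, a kinase that inhibits pyruvate dehydrogenase, was at 26.9, 40.9 and 66.6 CPM against 139, 173 and 254 CPM and fell (log2 fold change -2.05 with SE 0.17, adjusted p = 1.19e-07), and Ldha was lower (-0.40). The other glycolytic enzymes Gapdh, Pgk1, Eno1 and Tpi1 had log2 fold changes from -0.09 to 0.04, none called. With total-count scaling all of these were called higher (0.26, 0.35, 0.36 and 0.39), and Ldha was not called (-0.06). Of 20 genes of glycolysis and lactate 7 were higher and 3 lower, or 13 and 1 with total-count scaling. Of 24 genes of gluconeogenesis and glycogen, 13 were lower and 2 higher, or 5 and 5 with total-count scaling. The lower ones included G6pc, the last step of glucose release (-0.83, not called without VEH replicate 1 or 7), and the glycerol channel gene Aqp9 (log2 fold change -0.98 with SE 0.19, adjusted p = 0.000229).

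**Figure D4:**
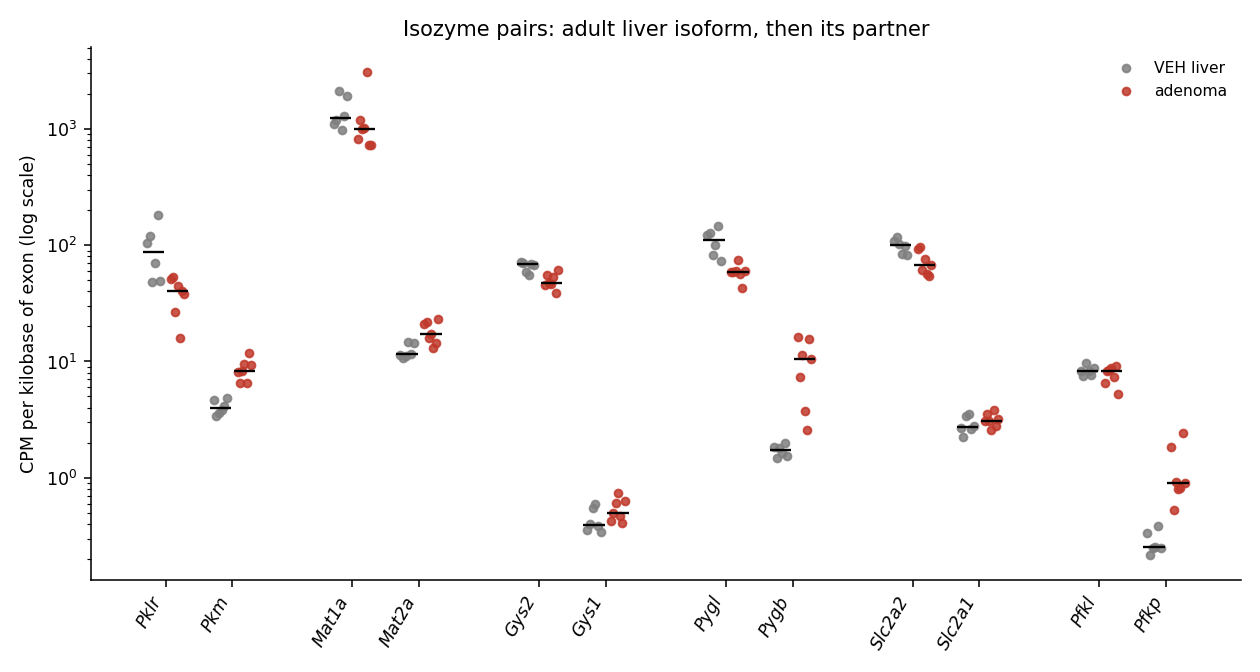
Level per exon length (CPM per kilobase, log axis) of isozyme pairs in VEH liver (grey) and adenoma (red); points are libraries and bars the medians. By this measure, which uses all annotated exons of a gene, partner isoforms such as Pkm, Pygb and Pfkp rise without reaching the level of Pklr, Pygl and Pfkl.

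Among genes of the pentose phosphate pathway, serine and nucleotide synthesis, 14 of 33 were higher and 4 lower (median 0.29). Mthfd1l, which releases formate from mitochondria for nucleotide synthesis, was at 5.45, 12.5 and 18.8 CPM against 0.658, 0.751 and 1.09 CPM (log2 fold change 3.88 with SE 0.29, adjusted p = 2.15e-08). Psat1 (log2 fold change 2.83 with SE 0.41, adjusted p = 1.86e-05) and Phgdh (log2 fold change 1.80 with SE 0.32, adjusted p = 0.000123), the enzymes of serine synthesis, were above all controls in 7 of 7 adenomas at low levels, and Mthfd2 was higher too (1.30). Shmt1, the cytosolic partner that makes glycine from serine, was lower (log2 fold change -1.04 with SE 0.14, adjusted p = 1.11e-05). Asns, G6pdx and Tkt were not called, except G6pdx without VEH replicate 6 (0.93, adjusted p = 0.0361) and Tkt without adenoma replicate 7 (0.38, adjusted p = 0.0461). Of 46 genes of amino acid catabolism 21 were lower and 5 higher (median -0.27), but with total-count scaling 12 were lower and 13 higher (median 0.07), so the side they lean to rests on the scaling. Dmgdh, Haao and Fah, enzymes of choline, tryptophan and tyrosine breakdown, were lower in all 7 adenomas (-1.19, -0.88 and -0.57). Acmsd, which directs tryptophan carbon away from NAD synthesis, was at 55.9, 63.7 and 135 CPM against 11.4, 22.9 and 33.6 CPM and rose (log2 fold change 1.68 with SE 0.24, adjusted p = 1.79e-05). In the urea cycle, 5 of 14 genes were lower and 1 higher, or 3 lower without adenoma replicate 3 or 12. The cycle enzymes Cps1, Ass1, Asl and Arg1 were not called, although Cps1 was lower without adenoma replicate 7 (-0.66, adjusted p = 0.00746), and Otc was lower by a small amount (-0.26, or 0.09 with total-count scaling), a call lost without adenoma replicate 3 or 12 or VEH replicate 2 or 4.

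Secreted blood proteins were lower by modest factors. Of 28 coagulation genes 19 were lower and 4 higher (median -0.49), or 11 and 5 with total-count scaling. F2, which encodes prothrombin, was at 1210.4, 1413 and 2083 CPM against 2366, 2547 and 3019.5 CPM (log2 fold change -0.79 with SE 0.12, adjusted p = 2.89e-05), and antithrombin, encoded by Serpinc1, at 1533, 1874 and 2147 CPM against 2734, 2801 and 3289 CPM (log2 fold change -0.58 with SE 0.10, adjusted p = 7.46e-05). The 4 that rose included Plau and Plaur, which encode a plasminogen activator and its receptor (1.63 and 2.15), and Pros1, the gene of protein S (0.91). Of 39 complement and acute phase genes 14 were lower and 9 higher, or 9 and 14 with total-count scaling. The terminal complement genes C8a, C8b and C8g were all lower (-1.10, -1.06 and -0.84), and Lcn2, an iron-binding acute phase protein, was at 23.9, 140.2 and 419 CPM against 0.932, 7.42 and 22.2 CPM (log2 fold change 4.29 with SE 0.93, adjusted p = 0.00106). Saa1, Saa2 and Hp, also acute phase genes, were not called. Alb, the most abundant transcript of hepatocytes, was at 39016, 65359 and 85689 CPM against 81759, 89606 and 108507 CPM (log2 fold change -0.54 with SE 0.16, adjusted p = 0.00934), and with total-count scaling its log2 fold change was -0.21.

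Transcription factors of hepatocytes were lower in part. Of 33 genes 15 were lower and 2 higher (median -0.35), and with total-count scaling 6 were lower and 5 higher (median -0.01). Cebpa was at 243, 312 and 353 CPM against 411, 436 and 470.0 CPM (log2 fold change -0.54 with SE 0.09, adjusted p = 8.85e-05), and Foxa1 and Foxa2 were lower too (-1.0 and -0.83). Cebpa was not called with total-count scaling (-0.19, adjusted p = 0.0847). Hnf4a, the central regulator of hepatocyte identity, was at 443, 530.0 and 736 CPM against 505, 609 and 736 CPM, and its groups overlapped (log2 fold change -0.15 with SE 0.13, adjusted p = 0.33).

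Zonation genes set adenoma replicate 6, and in part replicate 7, apart from the others. Of 27 pericentral genes 13 were lower and 3 higher (median -1.0), while of 25 periportal genes 5 were lower and 9 higher (median 0.20). The difference between the lists was not tested. Glul, the glutamine synthetase of the last cells before the central vein, was at 242, 344 and 1729 CPM against 954, 1246 and 1444 CPM (log2 fold change -1.06 with SE 0.39, adjusted p = 0.0277). In 6 adenomas it lay below every VEH liver, but replicate 6 held the highest value of the 13 libraries. Without replicate 6 its log2 fold change was -1.63 (adjusted p = 4.09e-05), and the call was lost by a small margin when adenoma replicate 1, 3, 5, 11 or 12 or VEH replicate 1 was left out (adjusted p of 0.0509 to 0.0546). Glul was not called with total-count scaling either (-0.72, adjusted p = 0.123). Axin2, a feedback gene of the Wnt pathway, was likewise highest in replicate 6, at 23.5 CPM, against 4.28, 8.81 and 14.2 CPM in VEH liver and 2.05, 4.89 and 23.5 CPM over the adenomas (log2 fold change 0.00 with SE 0.47, adjusted p = 0.996). Oat, an ornithine aminotransferase, was at 1666 CPM in replicate 6, against 150.1, 326 and 1666 CPM over the adenomas and 884, 1274 and 1627 CPM in VEH liver. Nkd1, another Wnt feedback gene, was at 11.5 CPM there against 3.95, 4.63 and 5.78 CPM in VEH liver, and it was called lower only once that library was left out (-0.83, adjusted p = 0.00403). Oat was called (log2 fold change -1.21 with SE 0.43, adjusted p = 0.0262), with -1.83 without replicate 6, and lost the call without adenoma replicate 3, 5 or 12 or VEH replicate 7 (adjusted p of 0.0514 to 0.0533). The call of Oat was also lost with total-count scaling (-0.86, adjusted p = 0.0968).

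The median difference of the pericentral list from the VEH mean was 0.24 in replicate 6 and -0.21 in replicate 7, and it ran from -0.85 to -2.10 in the other 5 adenomas. VEH livers ran from -0.18 to 0.13. For the Wnt pathway list it was 0.45 in replicate 6 and 0.34 in replicate 7. The other adenomas ran from -0.84 to -0.02 there, and VEH livers from -0.15 to 0.18. For the periportal list replicate 7 was highest, at 0.82, against -0.26 to 0.40 in the other adenomas and -0.22 to 0.46 in VEH livers. Ctnnb1, the gene of beta-catenin, was not called (log2 fold change 0.08 with SE 0.07, adjusted p = 0.349). Among periportal genes, Hsd17b6, a steroid dehydrogenase, was at 84.5, 341 and 371 CPM against 26.2, 40.3 and 44.9 CPM (log2 fold change 2.89 with SE 0.37, adjusted p = 8.21e-06), and Aldh1b1, a mitochondrial aldehyde dehydrogenase, at 144, 372 and 462 CPM against 48.8, 75.8 and 104 CPM (log2 fold change 2.16 with SE 0.26, adjusted p = 3.72e-06). Both were above all controls in 7 of 7 adenomas. Cdh1, encoding E-cadherin, was higher as well (log2 fold change 1.33 with SE 0.18, adjusted p = 1.23e-05), whereas G6pc, Alb and Igfals of the same list were lower.

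Growth signalling genes rose in part. Of 22 ERK pathway target and feedback genes 12 were higher and 0 lower (median 0.74). Ccnd1, the cyclin D1 gene that responds to mitogens, was at 51.6, 65.3 and 93.1 CPM against 8.30, 11.7 and 15.6 CPM (log2 fold change 2.59 with SE 0.24, adjusted p = 3.22e-07). Emp1, an epithelial membrane protein, was at 9.64, 13 and 16.8 CPM against 0.812, 1.74 and 2.32 CPM (log2 fold change 3.00 with SE 0.23, adjusted p = 2.96e-08), and Dusp5, a nuclear ERK phosphatase, also rose (log2 fold change 2.42 with SE 0.30, adjusted p = 4.71e-06). The feedback genes Dusp6, Spry2 and Spry4 were not called (-0.01, 0.53 and -0.44), except Spry4 without adenoma replicate 7 (-0.68, adjusted p = 0.0378) and Spry2 without VEH replicate 7 (0.65, adjusted p = 0.0405). Hras and Braf, 2 genes that carry activating mutations in many mouse liver tumours, did not differ at the threshold in level (log2 fold change -0.19 with SE 0.09, adjusted p = 0.0798, and log2 fold change -0.15 with SE 0.15, adjusted p = 0.426), although Hras was lower without adenoma replicate 12 (-0.26, adjusted p = 0.00754). The sequence of these genes was not analysed here.

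Receptors and ligands moved in both directions: of 30 genes 13 were higher and 9 lower. Met, the receptor of hepatocyte growth factor, was at 84.8, 114 and 128 CPM against 166, 189 and 225 CPM and fell (log2 fold change -0.80 with SE 0.09, adjusted p = 2.74e-06), and Erbb3 was lower (-0.50). Egfr was at 349, 522 and 744 CPM against 569, 762 and 977 CPM and was not called (log2 fold change -0.45 with SE 0.24, adjusted p = 0.122). Fgfr1, Erbb2 and Axl were higher (1.5, 0.89 and 0.80), with Erbb2 not called when all 5 groups were fitted (adjusted p = 0.0536), and of the ligands Btc, which binds EGFR, rose most (2.64). Pdgfa and Pdgfb were higher (1.27 and 2.31).

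Of 21 YAP and TEAD targets 10 were higher and 4 lower (median 0.58), with Ajuba (log2 fold change 2.16 with SE 0.21, adjusted p = 5.29e-07) and Ccn2 (log2 fold change 1.97 with SE 0.25, adjusted p = 5.38e-06) above all controls in 7 of 7 adenomas. Yap1 itself was slightly lower (-0.28, or 0.07 with total-count scaling). Of 16 Notch pathway genes 11 were higher and 0 lower (median 0.74), from Jag2 (log2 fold change 3.44 with SE 0.41, adjusted p = 2.61e-06) and Notch3 (log2 fold change 1.56 with SE 0.21, adjusted p = 1.04e-05) to Rbpj (0.41), while Notch2, Jag1 and Hes1 were not called. Hes1 was higher without VEH replicate 6 (0.70, adjusted p = 0.0178) and by limma-voom (0.60, adjusted p = 0.0410). Of 15 imprinted and fetal growth genes tested 7 were higher and 0 lower, among them Phlda2 (log2 fold change 3.87 with SE 0.64, adjusted p = 6.40e-05) and Grb10 (log2 fold change 0.87 with SE 0.15, adjusted p = 8.74e-05), both growth restrictors, and Plagl1 (1.48). Igf2 and Dlk1, the best known fetal growth genes of this list, were too low to be tested.

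Targets of p53 and inhibitors of the cell cycle were higher too. Of 30 genes 18 were higher and 2 lower (median 0.74). Cdkn1a, which encodes p21, was higher (log2 fold change 2.5). Phlda3, an AKT inhibitor induced by p53, was at 3.10, 7.87 and 14.5 CPM against 0.627, 0.972 and 1.18 CPM (log2 fold change 3.12 with SE 0.31, adjusted p = 4.42e-07). Eda2r, a death receptor gene, was at 2.71, 6.56 and 13.7 CPM against 0.712, 1.14 and 1.78 CPM (log2 fold change 2.55 with SE 0.33, adjusted p = 7.31e-06). Trp53 itself was at 9.69, 10.2 and 11.9 CPM against 5.07, 6.65 and 7.01 CPM (log2 fold change 0.69 with SE 0.09, adjusted p = 6.47e-06), with no overlap. Mdm2, Bax and Zmat3 were higher by 0.21, 0.48 and 1.21, while Ccng1, Sesn2 and Fas, known targets as well, were not called, except Ccng1 without VEH replicate 1 (0.18, adjusted p = 0.0426). The call of Mdm2 was lost without adenoma replicate 5 or 11 or VEH replicate 2 or 6 (adjusted p of 0.0515 to 0.0648). Cdkn2b was higher (1.92), and Cdkn2a, at 0.0887, 0.561 and 0.885 CPM, was not called (log2 fold change 0.80 with SE 0.42, adjusted p = 0.117), except without adenoma replicate 7 (0.97, adjusted p = 0.0290). Perp, a p53 target of cell junctions, was lower (log2 fold change -1.0 with SE 0.18, adjusted p = 0.00016).

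Endothelial genes moved in both directions. Liver sinusoids are lined by fenestrated cells with scavenger receptors, whereas vessels of most organs have a continuous lining that carries CD34. Of 22 sinusoidal markers 15 were lower and 2 higher (median -0.48), and of 19 continuous endothelium markers 15 were higher and 0 lower (median 0.67). Cd34 was at 6.71, 12.1 and 15.1 CPM against 0.701, 1.74 and 4.87 CPM (log2 fold change 2.46 with SE 0.33, adjusted p = 9.34e-06), and Esm1, a gene of tip cells in growing vessels, at 4.40, 8.29 and 10.3 CPM against 0.219, 0.391 and 0.669 CPM (log2 fold change 4.20 with SE 0.34, adjusted p = 5.43e-08). Stab2, a scavenger receptor of sinusoids, was at 48.5, 71.3 and 91.3 CPM against 98.8, 110.2 and 120.2 CPM (log2 fold change -0.63 with SE 0.11, adjusted p = 0.000165). All 3 separated the groups without overlap, although Stab2 was not called with total-count scaling (-0.28, adjusted p = 0.0586). Wnt2 and Rspo3, signals that sinusoidal and central vein endothelium sends to pericentral hepatocytes, were lower (-1.43 and -0.71). Lyve1 and Flt4, which sinusoids share with lymphatic vessels, were higher (1.62 and 1.34). Pecam1 was higher by 0.48 and Cdh5 was not called (0.13) except with total-count scaling (0.48, adjusted p = 0.00504). Vegfa was lower (log2 fold change -0.80 with SE 0.10, adjusted p = 5.26e-06), and Pdgfb and the vessel ligand gene Apln were higher (2.31 and 5.12).

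Matrix genes were mostly higher, with 23 of 28 higher and 2 lower (median 1.05), and 17 genes above every control in all 7 adenomas. Col4a1, a chain of basement membrane collagen, was at 89, 207 and 247 CPM against 40.6, 45 and 51.5 CPM (log2 fold change 2.03 with SE 0.19, adjusted p = 3.12e-07), and its partner Col4a2 rose alike (2.01). The protease gene Mmp7 was at 1.11, 2.04 and 3.93 CPM against 0.0369, 0.0404 and 0.0838 CPM (log2 fold change 5.45 with SE 0.48, adjusted p = 1.59e-07), and Mmp12 and Mmp13 were higher (4.77 and 5.10). Timp1, an inhibitor of these proteases, was higher (4.19). Col18a1, which hepatocytes make, was lower (log2 fold change -0.66 with SE 0.13, adjusted p = 0.000307). The stellate cell markers moved with this list, at 440.0 to 801 against 267 to 444 CPM summed, and their part in it was not tested.

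Krt8, a keratin of all hepatocytes, was higher (log2 fold change 1.67 with SE 0.23, adjusted p = 1.36e-05) with its partner Krt18 (1.43), and 15 of 27 epithelial junction and keratin genes were higher and 4 lower. Cholangiocyte markers, which overlap this list, moved with it, at 228 to 944 against 96.5 to 121 CPM summed. The liver gap junction genes Gjb1 and Gjb2 were lower (-0.52 and -0.51), while Cldn4 and Cldn7, tight junction genes of ducts, were higher (3.60 and 3.01). Krt20, a keratin of gut epithelium, had 1063 counts over the adenomas and 2 over the VEH livers, a ratio of 394 per unit of depth with a 95% exact interval of 109 to 3259 that covers counting error only. Vil1 and Cdhr2, of the brush border, were higher (5.22 and 4.75). Sis, Alpi and Cdx2, defining genes of intestine, had 0 counts in every adenoma, and the summed level of the 12 intestinal markers was 90.5 to 150 CPM against 79.6 to 129 CPM in VEH liver.

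Chemokine genes were mostly higher: 17 of 24 chemokine and checkpoint genes were higher and 4 lower (median 1.31). Cx3cl1, an adhesive chemokine, was at 4.08, 6.83 and 13.9 CPM against 0.524, 0.686 and 1.23 CPM (log2 fold change 3.33 with SE 0.27, adjusted p = 5.22e-08), and its receptor gene Cx3cr1 was higher (log2 fold change 3.27 with SE 0.26, adjusted p = 4.21e-08). Cxcl9, which draws T cells, was at 12.2, 24.3 and 49.7 CPM against 3.77, 4.48 and 5.98 CPM (log2 fold change 2.32 with SE 0.30, adjusted p = 8.30e-06). Cd274, which encodes PD-L1, was higher (0.95). Cxcl12, made by stromal and endothelial cells, was lower (log2 fold change -1.04 with SE 0.23, adjusted p = 0.000877). T and NK cell markers, at 7.01 to 18.9 against 3.35 to 4.87 CPM summed, moved with this list, and their part in it was not tested.

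Metal handling showed a few large rises in a mixed list of 25, with 8 higher and 6 lower. Slc39a4, an intestinal zinc importer, was at 45.9, 316 and 572 CPM against 6.16, 11.3 and 16.3 CPM (log2 fold change 4.66 with SE 0.61, adjusted p = 1.27e-05), with no overlap. The metallothionein genes Mt1 and Mt2, which bind zinc and copper, were higher (2.41 and 3.02), and adenoma replicate 7 held the highest Mt1 value, 183 CPM. Tfrc, the transferrin receptor of dividing and erythroid cells, was higher (log2 fold change 1.12 with SE 0.13, adjusted p = 2.50e-06), and its liver homologue Tfr2 was lower (log2 fold change -0.68 with SE 0.11, adjusted p = 5.83e-05). Hamp, the hepcidin gene, was not called (-0.62).

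Genes of mitochondria and ribosomes fell by small amounts that depend on the scaling. Of 41 nuclear genes of oxidative phosphorylation 24 were lower and 0 higher (median -0.24), of 13 mitochondrial genes 6 lower (median -0.27), and of 44 cytosolic ribosomal protein genes 29 lower (median -0.28). With total-count scaling these medians were 0.11, 0.08 and 0.08. Leaving out 1 library gave 3 mitochondrial genes called lower in place of 6 for VEH replicates 2 and 4 and adenoma replicates 1, 5, 6 and 11. The direction of these 3 lists is therefore relative to the median gene. Of 26 ribosome biogenesis genes 3 were higher and 2 lower (median 0.05). Chaperones of the endoplasmic reticulum were lower in part, with Hspa5 at -0.56 and Pdia4 at -0.61. Hspa5 was not called without VEH replicate 5 (-0.33, adjusted p = 0.0912). With total-count scaling neither Hspa5 nor Pdia4 was called (-0.21 and -0.25). Of 24 genes of the unfolded protein and integrated stress response 7 were lower and 3 higher, or 0 and 8 with total-count scaling. This share of falls is near the background of 24.8%, and without VEH replicate 5 only 3 genes of the list were lower. Atf3, a stress-induced transcription factor, was higher (log2 fold change 2.89 with SE 0.32, adjusted p = 1.82e-06). In the clock list 6 of 20 were lower and 1 higher, a share of falls near the background.

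The adenomas differed among themselves. The median size of the difference from the VEH mean over all genes was 0.28 in replicate 6 and 0.29 in replicate 7 on the log2 scale. It was 0.37 to 0.41 in replicates 1, 3, 5 and 12 and 0.46 in replicate 11. In VEH livers, each set against the other 5, it was 0.12 to 0.16. The share of genes at least 2-fold from the VEH mean was 9.84% in replicate 7 and 22.3% in replicate 11, against at most 1.94% in a VEH liver. Replicate 7 stayed nearest to the controls in several hepatocyte lists. Its median difference was -0.20 for bile acid genes, where the other adenomas ran from -0.50 to -0.83, and 0.23 for amino acid catabolism, where they ran from -0.26 to -0.77. For cholesterol synthesis it was the lowest of all 7.

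Medians by chromosome also varied between adenomas. For the genes of each chromosome with a mean of at least 1 CPM, the median difference from the VEH mean stayed between -0.03 and 0.04 in VEH livers and between -0.04 and 0.03 in TBT livers. In the adenomas it ran from -0.43 to 0.47. On chromosome 15, with 481 genes, it was 0.21, 0.28, 0.42 and 0.47 in replicates 1, 3, 11 and 12, and -0.04, 0.02 and 0.01 in replicates 5, 6 and 7. The shift covered the whole chromosome in the 4 adenomas: in replicate 12 its genes, ordered along the chromosome and cut into 3 equal parts, stood at 0.43, 0.52 and 0.47. Of 536 genes tested there, 41.2% were higher and 10.8% lower. Chromosome 4, which carries the Mup genes, was below the VEH range in all 7 adenomas, from -0.10 to -0.42, and so were chromosome 19, from -0.08 to -0.43, chromosome 9, from -0.09 to -0.34, and, by less, chromosome 8, from -0.03 to -0.18. Chromosome 16 was above it in all 7, from 0.02 to 0.29. Chromosome 12 stood at -0.38 in replicate 11. On chromosome 4, 41.5% of 844 genes were lower. Replicates 6 and 7 had the smallest range over chromosomes. DNA copy number was not measured.

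**Figure D5:**
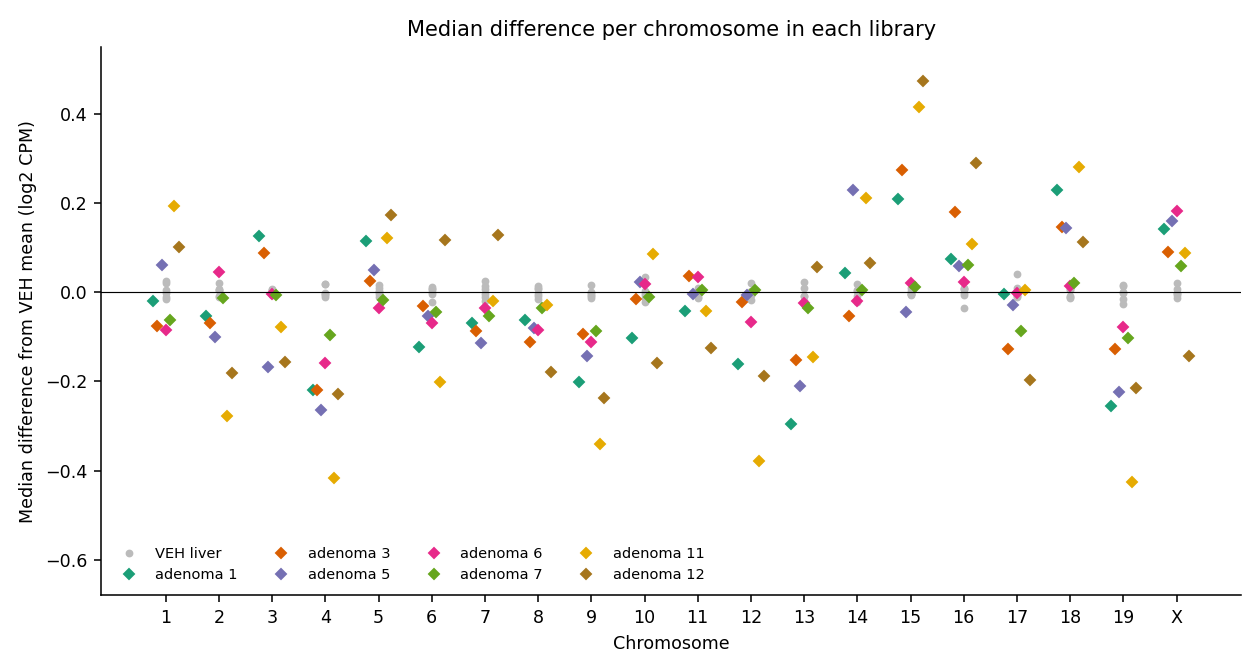
Median difference from the VEH mean in log2 CPM (pseudocount 0.25) of the genes of each chromosome, for each adenoma (coloured, with its replicate number) and each VEH liver (grey). VEH livers stay within -0.03 to 0.04, while adenoma replicates 1, 3, 11 and 12 lie at 0.21 to 0.47 on chromosome 15, and all 7 adenomas lie below the controls on chromosomes 4, 8, 9 and 19 and above them on chromosome 16.

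Several of the largest changes were in genes of no list. Ubd, a ubiquitin-like protein gene induced by inflammation, was at 6.83, 70.3 and 298 CPM against 0.126, 0.463 and 0.745 CPM (log2 fold change 7.87 with SE 0.88, adjusted p = 2.77e-06). Rasal1, a GTPase-activating protein for RAS, was at 1.91, 11.1 and 39.1 CPM against 0, 0.0788 and 0.157 CPM (log2 fold change 7.54 with SE 0.85, adjusted p = 2.83e-06). Gpx2, a glutathione peroxidase of gut epithelium, was at 0.665, 9.71 and 45 CPM against 0, 0.0210 and 0.121 CPM (log2 fold change 8.21 with SE 1.16, adjusted p = 2.31e-05). Every adenoma lay above every VEH and TBT liver in all 3. Ptgds, a prostaglandin D synthase, was at 0.577, 6.92 and 295 CPM against 0.219, 0.387 and 0.787 CPM (log2 fold change 7.14 with SE 1.40, adjusted p = 0.000446), with replicate 7 inside the control range, and limma-voom did not call it (4.92, adjusted p = 0.155). Timp4, a protease inhibitor, had 1977 counts over the adenomas and 1 over the VEH livers, a ratio of 1466 with a 95% exact interval of 263 to 57943. Among falls, Hhip, an inhibitor of hedgehog signals, was at 0, 0.119 and 0.368 CPM against 4.21, 5.43 and 6.18 CPM (log2 fold change -5.06 with SE 0.37, adjusted p = 2.15e-08). Dkk4, a secreted Wnt inhibitor, had 2 counts over the adenomas against 77 over the VEH livers. The ratio was 51.9 in favour of VEH liver with an interval of 13.9 to 436. Dkk4 does belong to a list, the Wnt pathway targets and feedback genes. Of its 20 genes tested 4 were higher and 3 lower (median -0.13), against 27.9% and 24.8% over all genes.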

How the data were processed

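RNA was purified with spin columns and DNase treatment, and stranded total RNA libraries were made, per the labels' protocols. Per the submitters' processing notes, the tools were FastQC, Trim Galore, HISAT2, featureCounts and edgeR, with mouse build mm10. For tool versions, annotation and strand use, the sources used here give nothing. The deposited values are raw counts, whole numbers of reads per gene that the authors did not normalise, for 22028 genes. The symbols of 27 genes stored as dates were restored, and 21951 genes matched GENCODE M21, the source of the coordinates. Without a known strand setting, overlapping and antisense genes cannot be told apart.

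Adenomas were told apart by the tissue label and the other groups by title, and the replicate numbers come from the titles. In 1 TBT liver the number in the title and in the column differed, and 9 was used. The 18 libraries of 10 months (7 adenoma, 6 VEH liver, 5 TBT liver) were fitted together in edgeR 4.0.16 (R 4.3.3): genes kept by filterByExpr (minimum count 10, minimum total 15), TMM scaling, robust quasi-likelihood test, Benjamini-Hochberg adjustment over all 13474 genes, threshold 0.05. TMM factors were 0.99 to 1.21 in adenoma and 0.83 to 0.93 in VEH liver. Standard errors are the log2 fold change divided by the square root of F. Differences by library used log2(CPM + 0.25). Intervals for ratios of summed counts are exact and cover counting error only. The fit was tested on simulated data with 200 changed genes. Alternatives were median-of-ratios scaling, total-count scaling (added after the data were seen), no filter, 1 CPM in 6 libraries, DESeq2 1.42.0, limma-voom (limma 3.58.1), other sets of groups, the replicate number as a block, and each of the 13 libraries left out.

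The samples and the 59 gene lists (1248 different genes) were chosen with earlier results of these data known. The rule for naming genes took the 12 largest rises and falls with a mean of at least 5 CPM. It added the 10 largest gains and losses in CPM. Up to 4 genes a list in its main direction and 2 in the other, isozyme pairs and a fixed set completed it. The text names only part of the genes of this rule, and some of the largest rises and gains are not reported. Of the 262 genes named, 99 lie outside this rule and were chosen after their values were seen. Some genes of the lists are not reported one by one here.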

Additional observations from a re-analysis of the deposited data

Results flagged for a closer look

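Within each group, the highest or lowest library was compared with the others by the gap to its nearest neighbour over the range of the group (Dixon's test at the 95% level). Of 140 sets of levels tested, 22 held a library that stood apart (15.7%). For normally distributed values chance gives about 1 in 20. The test used CPM without a log, and most libraries that stood apart were the highest of their group. The share is therefore not read against that rate. The genes share libraries and are not independent.

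Adenoma replicate 6 stood apart in 3 genes that pericentral hepatocytes or Wnt feedback express: Glul at 1729 CPM (next highest adenoma 774), Oat at 1666 CPM (756) and Nkd1 at 11.5 CPM (4.66). Adenoma replicate 7 stood apart with Mup7 at 565 CPM (110.4), Cyp7a1 at 192 CPM (88.6) and Mt1 at 183 CPM (69.2). Adenoma replicate 1 held the highest Ptgds, 295 CPM (94.7), and Cyp2b10, 26.8 CPM (8.69). Adenoma replicate 11 held the highest Cxcl9, 49.7 CPM (25.1), and Trem2, 13.5 CPM (8.09). Replicate 3 held the highest Acmsd, 135 CPM (79.6), and replicate 5 the highest Adipoq, 5.53 CPM (1.29).

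In VEH liver, replicate 4 stood apart in 5 genes, with Alb at 108507 CPM (next 91532), Serpinc1 at 3289 CPM (2897), Cyp2a5 at 293 CPM (166) and Mmp7 at 0.0838 CPM (0.0439) as its highest, and Trp53 at 5.07 CPM as its lowest (6.28). It also had the lowest TMM factor of the VEH livers, 0.83. VEH replicate 7 held the highest Cd34, 4.87 CPM (2.19), Cx3cl1, 1.23 CPM (0.730), Gpnmb, 1.45 CPM (0.812), and Mt1, 34.7 CPM (14.3). VEH replicate 6 held the lowest Hsd17b6, 26.2 CPM (40.0). For Cd34, Cx3cl1, Gpnmb, Mmp7 and Cyp2a5 every adenoma still lay above the library that stood apart.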

How the results depend on the processing

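Median-of-ratios scaling, no filter, the stricter filter, DESeq2, limma-voom and the fits with 2 or 5 groups kept the counts of higher and lower genes within 1.5 times of the values reported: 3218 to 4118 higher and 2732 to 3424 lower. Leaving out 1 library gave 3509 to 3871 higher and 3062 to 3494 lower genes, and 1812 to 2008 and 317 to 425 at 2-fold or more; 25 of the 262 genes named changed their call in at least 1 of these 13 fits. With total-count scaling, added after the data were seen, 7523 genes were higher and 802 lower, with 176 lower by at least 2-fold; the number lower was 13 for conjugating enzymes, 6 for fatty acid synthesis, 6 for sinusoidal endothelium, 0 for nuclear oxidative phosphorylation and 0 for ribosomal proteins. Log2 fold changes turned positive for Gapdh (0.26), Jak2 (0.33), Otc (0.0940), Pgk1 (0.35), Srebf2 (0.33), Stat5b (0.0179) and Yap1 (0.0678), and of the genes named 21 lost and 21 gained a call. Calls were lost for Abcb11, Alb, Cebpa, Dnmt3b, Erbb3, G6pc, Gjb1, Gjb2, Glul, Hmgcs1 and Hspa5. They were also lost for Igf1, Lamp2, Ldha, Lipa, Oat, Pdia4, Rspo3, Scd1, Stab2 and Ugt1a1. With the replicate number as a block, which leaves fewer residual degrees of freedom, 2235 genes were higher and 1726 lower; pericentral genes had 6 lower, continuous endothelium 9 higher, nuclear oxidative phosphorylation 3 lower and ribosomal proteins 4 lower, and 26 named genes lost and 5 gained a call. Only the numbers 1, 5, 6 and 7 occur in both groups, so the adenoma effect of the block fit rests on their libraries. The deviations of same-numbered samples from their group means had correlations of 0.05, -0.06, 0.05 and 0.17. Samples of different numbers were not compared, so these values do not settle whether the numbers pair the samples. Of the genes named, the fit of all 5 groups lost Ehhadh, Erbb2, Hmgcs1, Hspa5, Gls2, Mdm2, Otc and Por (adjusted p of 0.0515 to 0.188). limma-voom lost Adipoq (adjusted p = 0.134) and Ptgds (0.155). Over genes of at least 10 CPM the mean chromosome median of the adenomas moved to -0.18, -0.13, -0.16, -0.27, -0.09 and -0.05 for chromosomes 6, 7, 8, 9, 11 and X. Unless stated, the cause was not tested. Depth limits genes near 0 counts, such as Dkk4 and Timp4.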

Other observations

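Genes of lysosomes and of lipid-laden macrophages moved in both directions, with 8 of 21 higher and 5 lower (median log2 fold change 0.10). Gpnmb, a glycoprotein of such macrophages, was at 10.6, 28.1 and 50 CPM in adenoma and 0.433, 0.687 and 1.45 CPM in VEH liver, the lowest, the median and the highest library of each group (log2 fold change 5.29 with SE 0.45, adjusted p = 2.12e-07). The groups did not overlap. Trem2, a lipid receptor of macrophages, was at 4.48, 6.92 and 13.5 CPM against 0.590, 0.910 and 1.33 CPM (log2 fold change 2.97 with SE 0.28, adjusted p = 3.15e-07). Cd63, a tetraspanin of lysosomes, and Spp1, which encodes osteopontin, were higher (4.45 and 3.27), while the lysosomal genes Ctsd, Ctsz and Lamp1 were not called (0.10, 0.04 and 0.15) and Lipa and Lamp2 were lower (-0.42 and -0.48). Of 12 markers of monocyte-derived macrophages 11 were higher, but their summed level overlapped that of VEH liver (1502 to 2311 against 1732 to 2420 CPM). Their median difference from the VEH mean did not overlap (0.75 to 1.89 against -0.25 to 0.16). The part of these cells was not tested.

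Of 27 genes of retinoid and steroid metabolism, 15 were lower and 8 higher (median -0.66). Aldh1a1, a retinal dehydrogenase, was at 652, 806 and 1182 CPM against 1738, 1885 and 3141 CPM (log2 fold change -1.34 with SE 0.19, adjusted p = 1.58e-05), and Hsd11b1, which activates glucocorticoids, was lower (log2 fold change -1.10 with SE 0.15, adjusted p = 9.79e-06). The retinol carrier gene Rbp4 was lower (-0.70), and Dhrs9, a retinol dehydrogenase, was higher (2.28). Of 25 chromatin genes 9 were higher and 3 lower (median 0.22), with Uhrf1, which guides maintenance DNA methylation, at 0.887, 5.67 and 10.4 CPM against 0.263, 0.577 and 0.886 CPM (log2 fold change 3.44 with SE 0.47, adjusted p = 1.34e-05). Hells and Ezh2 were higher as well (1.89 and 0.81), and Dnmt3b was lower (-0.88). The levels of Uhrf1 were low in both groups.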
